A study of Mus musculus with 23 samples.

Results

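The genes described here encode the cytokines IL-7, IL-15, IL-18, IL-33 and TSLP with the receptor chains and the inhibitor that bind them. They are *Il7*, *Il7r*, *Il15*, *Il15ra*, *Il18*, *Il18r1*, *Il18bp*, *Il33*, *Il1rl1* and *Tslp*, 10 of the 55449 genes of the expression table, and they were chosen by symbol. Colon RNA was sequenced from male C57BL/6 *Cdx2Apc*f/w mice, in which Cre recombinase under the *Cdx2* promoter deletes 1 floxed *Apc* allele, so that every group carried this deletion. The mice were 6 to 8 weeks old at the start, were fed a 60% high-fat diet (HFD) and were colonized with *Bacteroides fragilis* BF638R after antibiotics in the drinking water. BF BSHlow is this bacterium with an empty vector (bsh-), and BF BSHhigh carries a *bsh* gene for bile salt hydrolase, an enzyme that removes the amino acid from conjugated bile acids (bsh+). There were 4 BF BSHlow and 4 BF BSHhigh libraries of normal colon after 2 weeks, 4 and 4 of non-tumor tissues after 12 weeks, and 4 BF BSHlow and 3 BF BSHhigh libraries of tumor tissues after 12 weeks.

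IL-7 and IL-15 are growth and survival factors of lymphocytes: IL-7 signals through the chains encoded by *Il7r* and *Il2rg*, TSLP through *Il7r* and *Crlf2*, and IL-15 is held on the cell surface by the product of *Il15ra* and shown to cells with *Il2rb* and *Il2rg*. IL-18 is made by colon epithelium as a precursor that caspase-1 cleaves, binds the receptor of *Il18r1* and *Il18rap*, and is caught in solution by the binding protein of *Il18bp*. IL-33 and TSLP are called alarmins since barrier cells release them on damage, and IL-33 acts through ST2, the product of *Il1rl1*, with *Il1rap*, on mast cells, group 2 innate lymphoid cells (ILC2) and regulatory T cells.

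The libraries held from 12401388 to 17903008 expected counts (median 15874872). Levels are given as CPM, counts scaled for library size with TMM factors over all 23 libraries, and differences as log2 fold changes. A gene is called where the quasi-likelihood test of edgeR gave an adjusted p-value under 0.05 over all genes tested. The tumor label was borne out by 8 WNT target genes of tumor epithelium, whose summed level was between 1520 and 3530 CPM in the tumor libraries and between 39.8 and 98.1 CPM in the others. Replicate 4 of the BF BSHlow non-tumor tissues, at 98.1 CPM, was the highest of the latter, beside 46.6 to 55.4 CPM in the 3 other libraries of its group. The libraries of 2 weeks differed from non-tumor tissues in marker genes of muscle, stroma and colon position, which is described with that comparison. The columns of the 3 BF BSHhigh tumors repeat names of BF BSHlow tumors in the table and were assigned as a group, so that they are called a, b and c. In whole tissue, fewer cells of a type and less RNA per cell cannot be told apart.

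Per kilobase of exon, *Il18* had the highest level of the 10 genes in non-tumor tissues, at 67.8 CPM per kb in BF BSHlow and 74.7 CPM per kb in BF BSHhigh (means, n = 4 each). In tumors *Il1rl1* had the highest level, at 50.8 CPM per kb in BF BSHlow (n = 4) and 30.8 CPM per kb in BF BSHhigh (n = 3), and *Il18* followed at 17.4 and 28.5 CPM per kb. At 2 weeks *Il18* and *Il15* led, at 10.9 and 9.40 CPM per kb in BF BSHlow and 16.9 and 10.8 CPM per kb in BF BSHhigh. *Tslp* had the lowest level per kb in every group except BF BSHlow non-tumor tissues, where *Il18r1* was lower, with 0 to 16 counts per library and at most 1.19 CPM.

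**Figure D1:**
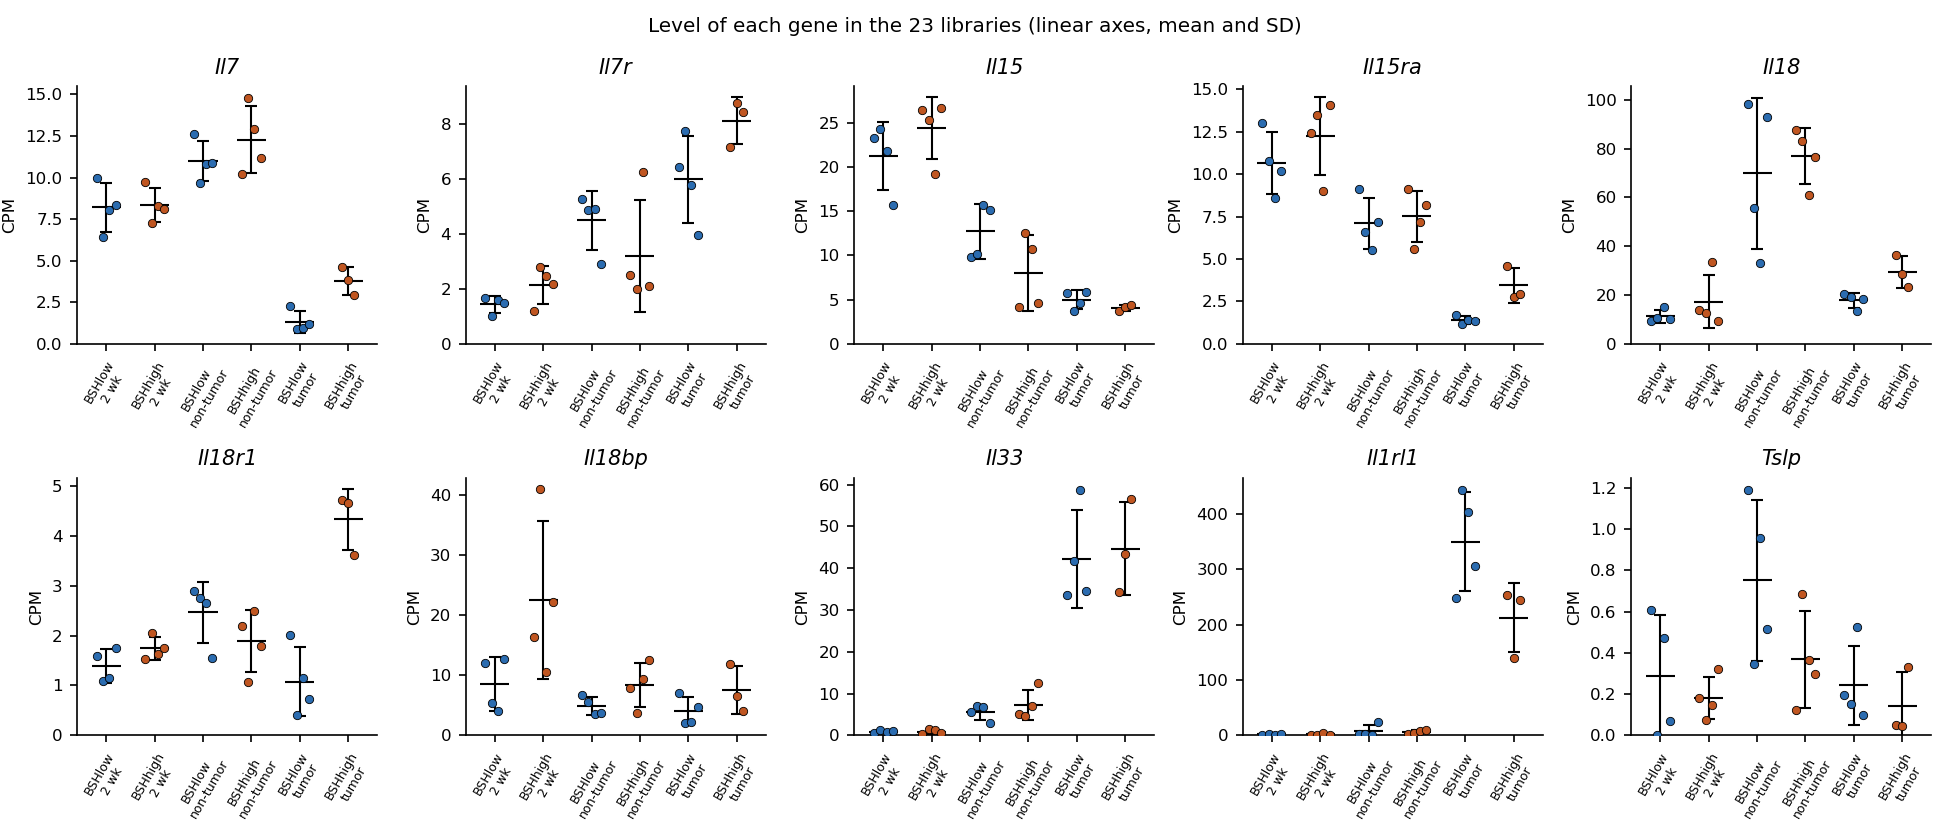
Level of each of the 10 genes in CPM (linear axes), with 1 point per library, blue for BF BSHlow and orange for BF BSHhigh, and the mean and SD of each group. *Il33* and *Il1rl1* were higher in every tumor library than in any other, while *Il7*, *Il15ra* and *Il18* were lower in the tumors of each strain than in its own non-tumor tissues.

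Tumor tissues were set against non-tumor tissues to ask which of these genes differ where *Apc*-deficient tumors grow. *Il33* and *Il1rl1*, an alarmin and its receptor, rose in tumors of both strains, and *Il7*, *Il15*, *Il15ra* and *Il18* fell in both. In BF BSHlow mice 7 of the 10 genes were called, 2 higher and 5 lower, where 65.5% of all 16454 genes tested were called (33.3% higher and 32.2% lower). With BF BSHhigh 8 of 10 were called, 4 higher and 4 lower, beside 56.6% of all genes (29.4% higher and 27.2% lower). Most genes thus differed between these tissues, and the counts of called members lie near that background. Counts of other gene lists in tumor against non-tumor tissues, given below, are to be read beside the same shares. The median log2 fold change of the 10 genes was -1.28 in BF BSHlow and -0.58 in BF BSHhigh, while that of all genes was 0.04 in each.

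*Il33* was at 5.49, 7.05, 6.68 and 2.97 CPM in the BF BSHlow non-tumor tissues and at 33.7, 41.7, 58.8 and 34.5 CPM in the BF BSHlow tumors. BF BSHhigh mice had 5.06, 4.61, 6.97 and 12.6 CPM in non-tumor tissues and 34.2, 43.4 and 56.5 CPM in tumors. Every tumor was above every non-tumor library, with no overlap in either strain. The rise was 7.52-fold in BF BSHlow (log2 fold change 2.91 with a standard error of 0.34, adjusted p = 3.71e-06 from edgeR) and 6.11-fold in BF BSHhigh (2.61 with a standard error of 0.34, adjusted p = 2.31e-05).

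*Il1rl1* was at 2.82, 2.75, 1.36 and 24 CPM in the BF BSHlow non-tumor tissues and at 248, 443, 403 and 305 CPM in the tumors. The BF BSHhigh non-tumor tissues had 2.56, 3.80, 8.00 and 9.88 CPM and the tumors 253, 140 and 245 CPM. The groups were far apart, and the 24 CPM belonged to replicate 4 of the BF BSHlow non-tumor tissues, the library with the highest WNT target level among non-tumor tissues. *Notum*, a WNT target that encodes a secreted WNT inhibitor, was at 5.94 CPM in that library, between 0 and 1.25 CPM in the 7 other non-tumor libraries and between 150 and 338 CPM in tumors (chosen after its values were seen). The part of tumor RNA in the *Il1rl1* level of that library was not tested.

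*Il1rl1* rose by 5.45 on the log2 scale in BF BSHlow tumors (43.8-fold, standard error 0.78, adjusted p = 2.79e-05 from edgeR) and by 5.13 in BF BSHhigh tumors (35.0-fold, standard error 0.79, adjusted p = 9.04e-05). Without the non-tumor replicate 4 the value in BF BSHlow was 7.23. The counts do not separate the membrane-bound from the soluble form of ST2, which come from the same gene.

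*Il1rl1* lies on chromosome 1 from 40429570 to 40465415 (GRCm38, plus strand) and ends just before *Il18r1*, which runs from 40465552 to 40500854 on the same strand. *Il33* lies on chromosome 19 from 29925114 to 29960718 on the plus strand. The RefSeq promoter sequences of this pair, which had the largest rises, are printed since each gene has a distal and a proximal start, and the gene counts do not say which one was used. Each window holds 250 bases before and 50 after a start on the plus strand of GRCm38.p6, at chr1:40429320-40429619 and chr1:40439379-40439678 for *Il1rl1* and at chr19:29924863-29925162 and chr19:29945540-29945839 for *Il33*. Capitals mark a match to AGATAA on either strand, the motif of GATA factors.
Il1rl1 distal start: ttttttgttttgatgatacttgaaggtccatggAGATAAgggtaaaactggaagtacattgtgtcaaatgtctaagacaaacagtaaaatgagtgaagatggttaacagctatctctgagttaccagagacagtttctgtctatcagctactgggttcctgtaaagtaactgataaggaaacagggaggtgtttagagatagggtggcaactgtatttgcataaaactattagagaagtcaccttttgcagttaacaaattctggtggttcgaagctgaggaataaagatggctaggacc
Il1rl1 proximal start: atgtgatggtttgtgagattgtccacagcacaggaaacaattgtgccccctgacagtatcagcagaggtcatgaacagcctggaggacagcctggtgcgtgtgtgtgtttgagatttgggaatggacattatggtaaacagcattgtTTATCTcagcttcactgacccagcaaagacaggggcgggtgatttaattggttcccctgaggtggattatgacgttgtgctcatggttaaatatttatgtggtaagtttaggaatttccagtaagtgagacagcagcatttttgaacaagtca
Il33 distal start: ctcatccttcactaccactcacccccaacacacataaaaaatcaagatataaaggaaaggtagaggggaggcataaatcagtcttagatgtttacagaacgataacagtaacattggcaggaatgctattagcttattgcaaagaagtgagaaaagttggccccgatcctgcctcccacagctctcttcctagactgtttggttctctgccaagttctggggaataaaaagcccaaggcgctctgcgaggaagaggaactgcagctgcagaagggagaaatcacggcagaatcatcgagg
Il33 proximal start: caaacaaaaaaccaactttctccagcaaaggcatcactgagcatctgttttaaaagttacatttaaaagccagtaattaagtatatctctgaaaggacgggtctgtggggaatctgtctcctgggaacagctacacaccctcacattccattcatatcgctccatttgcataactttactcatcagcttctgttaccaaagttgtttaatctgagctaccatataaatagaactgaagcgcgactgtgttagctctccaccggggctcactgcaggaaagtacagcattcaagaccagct

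Both windows of *Il1rl1* hold 1 match to AGATAA, which 11.2% of the 32851 promoter windows of 300 bases outside chromosome 18 hold. Neither window of *Il33* holds one. No match to the interferon response element (3.44% of all windows on either strand), TTCNNNGAA, the STAT motif (8.30%), TGANTCA, the AP-1 motif (7.81%), or CTTTGAT, the TCF/LEF motif (3.73%), lies in these 4 windows. Chromosome 18, where *Tslp* lies, was left out of this search. Of the 10 genes, 7 had a promoter entry elsewhere, with 12 windows in all. A match is a description of the letters, not a binding site.

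Of the cells known to carry ST2, mast cells were followed here through a marker list. Regulatory T cells had no list of their own. Summed levels of 9 mast cell genes were between 7.81 and 22.4 CPM in BF BSHlow non-tumor tissues and between 33.4 and 249 CPM in the tumors, and between 8.01 and 53.7 and between 41.5 and 88.6 CPM in BF BSHhigh mice. Of the 9 genes, 5 rose and 1 fell in BF BSHlow tumors, and 3 rose in BF BSHhigh tumors. *Mcpt1*, a mast cell protease of the mucosa, rose in both (log2 fold changes 3.85 and 3.41, adjusted p = 6.37e-05 and 0.000374 from edgeR). *Hdc*, which makes histamine and is not expressed by mast cells alone, had 153 and 200 CPM in BF BSHlow tumor replicates 1 and 4, most of their sums of 229 and 249 CPM. The highest *Il1rl1* level, in BF BSHlow replicate 2, stood beside the lowest mast cell sum of that group. The part of mast cells in the *Il1rl1* level was not tested.

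**Figure D2:**
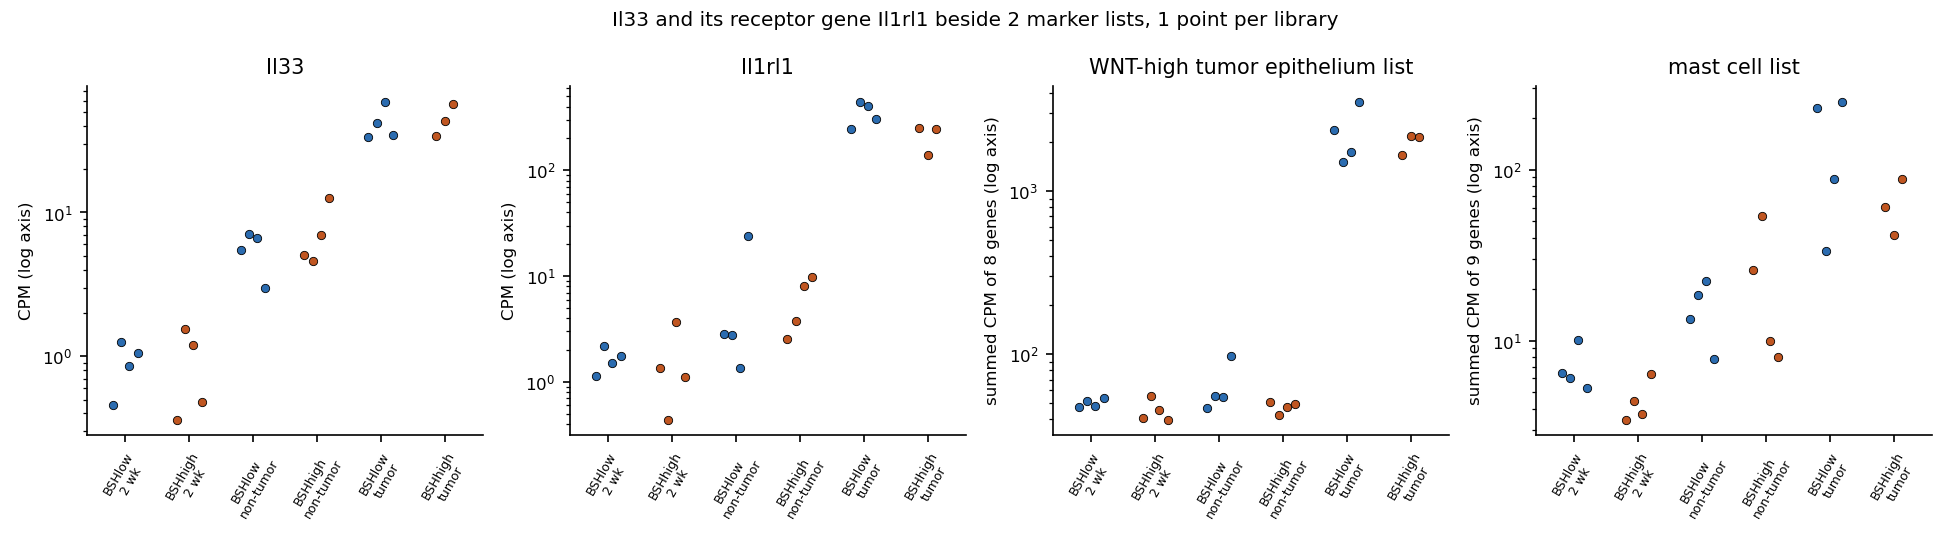
Levels of *Il33* and *Il1rl1* in CPM and summed CPM of 8 WNT-high tumor epithelium genes and 9 mast cell genes, on log axes with 1 point per library (blue BF BSHlow, orange BF BSHhigh). *Il1rl1* was between 140 and 443 CPM in tumors and at most 24 CPM elsewhere, in the non-tumor library that was also highest for the WNT list.

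Type 2 cytokine and ILC2 genes and genes of MyD88 signalling were followed too. Of 12 type 2 cytokine and ILC2 genes 6 could be tested, and 2 rose in BF BSHlow tumors and 1 in BF BSHhigh tumors. *Arg1*, an arginine-degrading enzyme of ILC2 and of myeloid cells, rose in both (log2 fold changes 5.02 and 5.02, adjusted p = 7.25e-05 and 0.000111 from edgeR). *Il13* and *Il5*, the type 2 cytokines that define ILC2, had at most 0.191 and 0.0982 CPM in any library and were not tested. Of 12 genes of MyD88 signalling, which IL-18 and IL-33 receptors share, 4 rose and 2 fell in BF BSHlow tumors and 2 rose and 1 fell in BF BSHhigh tumors. The co-receptor chain *Il1rap* had log2 fold changes of 0.24 and 0.10 (adjusted p = 0.402 and 0.762 from edgeR), and its counts are uncertain since its exons overlap those of the antisense gene *Gm20319*.

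The IL-18 genes did not move together. *Il18* was at 98.2, 55.7, 33.0 and 92.8 CPM in BF BSHlow non-tumor tissues and at 20.4, 19.3, 13.4 and 18.4 CPM in the tumors. With BF BSHhigh it was at 87.5, 83.1, 60.9 and 76.6 CPM and, in tumors, at 36.3, 28.7 and 23.3 CPM. Tumors were below non-tumor tissues in both strains without overlap, and *Il18* fell by 1.98 on the log2 scale in BF BSHlow and by 1.40 in BF BSHhigh (adjusted p = 3.49e-05 and 0.00170 from edgeR).

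*Il18r1*, the ligand-binding receptor chain, was at 2.89, 2.75, 2.66 and 1.55 CPM in BF BSHlow non-tumor tissues and at 2.01, 0.41, 1.14 and 0.733 CPM in the tumors. The BF BSHhigh libraries had it at 2.19, 1.06, 2.49 and 1.80 CPM and at 4.71, 4.65 and 3.62 CPM. It was thus lower in BF BSHlow tumors, with overlap, and higher in BF BSHhigh tumors, without overlap. The log2 fold changes were -1.19 (adjusted p = 0.0206 from edgeR) and 1.19 (adjusted p = 0.0283). The difference between these effects, the interaction term, was 2.38 with a standard error of 0.60 and was not called (adjusted p = 0.0842). Of the 10 members 0 were called for the interaction, where 0.991% of all genes were (0.978% higher and 0.0122% lower). The call in BF BSHlow was lost without tumor replicate 4 (adjusted p = 0.0502), and that in BF BSHhigh was lost on leaving out 4 of the 7 libraries in turn, non-tumor replicates 2 and 4 and 2 of the 3 tumors, with log2 fold changes between 0.99 and 1.17 in these 4 fits.

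The second chain, *Il18rap*, rose in tumors of both strains (log2 fold changes 2.77 and 2.31, adjusted p = 2.07e-05 and 0.000177 from edgeR). It was between 0.818 and 3.06 CPM in the 8 non-tumor libraries and between 4.87 and 9.63 CPM in the 7 tumors. *Il18bp*, the soluble inhibitor, had log2 fold changes of -0.29 and -0.16 (adjusted p = 0.601 and 0.795). Its exons overlap those of *Numa1* on the opposite strand, and whether the counting used strand is not stated, so that its counts are uncertain.

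Most genes listed for IL-18 processing fell with it. Of 14 genes of inflammasomes and IL-18 processing, 10 fell and 2 rose in BF BSHlow tumors, and 10 fell and 1 rose in BF BSHhigh tumors. Of all genes tested, 32.2% were called lower in BF BSHlow tumors and 27.2% in BF BSHhigh tumors. The median log2 fold changes of the 14 genes were -2.33 and -1.44. *Casp1*, the protease that cleaves the precursor, fell by 2.46 and by 1.24 on the log2 scale (adjusted p = 7.88e-07 and 0.000883 from edgeR). *Pycard*, the adaptor that joins caspase-1 to the inflammasome, fell by 3.51 and by 2.09 (adjusted p = 4.77e-08 and 1.37e-05). *Naip1* and *Naip2*, bacterial sensors, fell by 4.83 and by 2.98 in BF BSHlow tumors, but these genes have near-identical copies and their counts are uncertain. The list was chosen with earlier results of these libraries known.

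*Il7* had the largest fitted fall of the ligands in both strains. It was at 12.6, 9.68, 10.8 and 10.9 CPM in BF BSHlow non-tumor tissues and at 2.26, 0.872, 0.954 and 1.17 CPM in the tumors. BF BSHhigh mice had 10.2, 14.8, 12.9 and 11.2 CPM in non-tumor tissues and 4.60, 3.84 and 2.91 CPM in tumors. Tumors were below non-tumor tissues without overlap in both strains, by 3.07 on the log2 scale in BF BSHlow and 1.70 in BF BSHhigh (log2 fold changes -3.07 and -1.70, adjusted p = 5.00e-07 and 0.000226 from edgeR). The difference of 1.36 between the strains was not called (adjusted p = 0.150). Exons of *Il7* overlap those of the antisense gene *Gm16685*, so that its counts are uncertain too.

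*Il7r*, the receptor chain of IL-7 and TSLP, did not follow its ligand. It was at 5.26, 4.87, 4.91 and 2.90 CPM in BF BSHlow non-tumor tissues and at 6.43, 7.75, 5.77 and 3.96 CPM in the tumors, which overlap. With BF BSHhigh it was at 2.50, 1.99, 6.24 and 2.10 CPM and, without overlap, at 7.14, 8.76 and 8.44 CPM in tumors. The log2 fold changes were 0.40 (adjusted p = 0.316 from edgeR) and 1.32 (adjusted p = 0.00694), and the difference of 0.92 between them was not called (adjusted p = 0.621). Without BF BSHhigh non-tumor replicate 3, which had 6.24 CPM, the value in that strain was 1.88. The *Il7r* count of BF BSHlow tumor replicate 2 in the deposited table is not the one in the study's supplementary expression table, and without that library the BF BSHlow value was 0.24 (adjusted p = 0.596).

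*Il15* and *Il15ra*, the ligand and the chain that presents it, fell in both strains. *Il15ra* was between 5.52 and 9.12 CPM in BF BSHlow non-tumor tissues and at 1.72, 1.18, 1.38 and 1.37 CPM in the tumors. With BF BSHhigh no non-tumor library was above 9.13 CPM or below 5.6 CPM, and the tumors were at 4.60, 2.77 and 2.96 CPM. No tumor reached a non-tumor library, with log2 fold changes of -2.34 and -1.14 (adjusted p = 1.49e-06 and 0.00168 from edgeR). *Il15* had log2 fold changes of -1.36 and -0.99 (adjusted p = 0.00252 and 0.0332). The BF BSHhigh *Il15* levels of both tissues overlapped, since 2 non-tumor libraries had 4.13 and 4.64 CPM, and the call was lost on leaving out 5 of the 7 libraries in turn, the non-tumor replicates 2 and 3 and each tumor (log2 fold changes between -1.05 and -0.69 in these fits).

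*Il2rb*, which IL-15 uses for signalling, had a log2 fold change of -0.86 in BF BSHlow (adjusted p = 0.0891 from edgeR) and rose by 1.19 in BF BSHhigh tumors (adjusted p = 0.0315). *Il2rg*, the common chain, had values of 0.01 and 0.41 (adjusted p = 0.985 and 0.465), and its counts are uncertain since its exons overlap those of *Gm20489* on the same strand. Of 14 cytotoxic genes that IL-15 and IL-18 are known to drive, 8 were tested, and 1 rose and 5 fell in BF BSHlow tumors, against 2 that rose and 1 that fell in BF BSHhigh tumors. *Gzmb*, granzyme B, rose in both (log2 fold changes 2.25 and 2.43, adjusted p = 0.00489 and 0.00180), and *Cd160*, a receptor of intraepithelial lymphocytes and natural killer cells, fell by 4.65 and by 1.98 (adjusted p = 2.09e-05 and 0.00895).

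*Tslp* was too low for a firm statement. Its counts in the 15 libraries of 12 weeks were between 1 and 16, and its log2 fold changes were -1.59 (adjusted p = 0.0502 from edgeR, and 0.0462 with RLE size factors) and -1.33 (adjusted p = 0.177). Its second chain *Crlf2* rose by 0.64 in BF BSHlow tumors, with overlap (adjusted p = 0.0335), and had a value of 0.47 in BF BSHhigh tumors (adjusted p = 0.141).

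**Figure D3:**
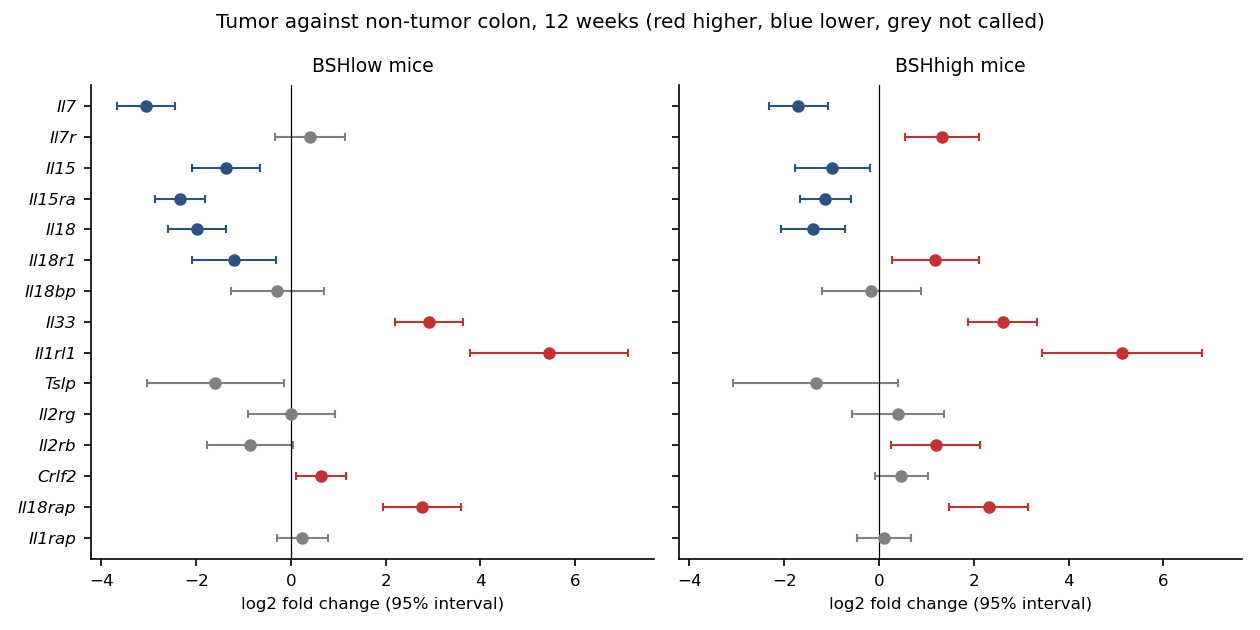
Log2 fold change of tumor against non-tumor tissues with its 95% interval for the 10 genes and 5 partner chains in BF BSHlow (left) and BF BSHhigh mice (right), red where called higher, blue where called lower and grey where not called. *Il33*, *Il1rl1* and *Il18rap* lie on the right in both strains, and *Il18r1* on opposite sides.

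Lists of related pathways and cells moved both ways. Of all genes tested, 65.5% were called between tumor and non-tumor tissues in BF BSHlow and 56.6% in BF BSHhigh. The counts of called STAT5 target genes lie near these shares. Of 10 STAT5 target genes 5 rose and 2 fell in BF BSHlow tumors and 6 rose and 1 fell in BF BSHhigh tumors, among them *Pim1*, a survival kinase (log2 fold changes 1.61 and 1.40, adjusted p = 6.71e-07 and 8.43e-06 from edgeR), and *Mcl1*, a survival protein that fell by 1.11 and by 0.96 (adjusted p = 3.89e-07 and 7.46e-06). Of 10 signal transducers of these receptors 2 rose and 4 fell, and 5 rose and 3 fell. Of 14 other IL-1 family symbols 8 were tested, with 5 higher and 2 lower, and 5 higher and 1 lower. Of 10 tuft cell genes 9 were tested, with 3 higher and 3 lower, and 2 higher and 3 lower. Of 10 ILC3 and type 3 cytokine genes 6 were tested, with 2 higher and 4 lower, and 2 higher and 3 lower. None of *Il2*, *Il4*, *Il9* and *Il21* had enough counts to be tested.

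Marker lists of several cell types moved with the tissue, some down and some up. Of 9 mature colonocyte genes 9 fell in BF BSHlow tumors and 7 in BF BSHhigh tumors, and their summed level was between 3910 and 7790 CPM in non-tumor and between 277 and 677 CPM in tumor tissues of BF BSHlow mice, and between 4690 and 7110 and between 815 and 2380 CPM in BF BSHhigh mice. All 7 goblet cell genes and all 6 smooth muscle genes fell in tumors of both strains, and all 7 B and plasma cell genes did. The summed level of 6 fibroblast genes was between 314 and 3260 CPM in BF BSHlow non-tumor and between 1490 and 3460 CPM in tumor tissues, and between 670 and 1260 and between 1870 and 2230 CPM in BF BSHhigh mice, with 2 and 3 of the 6 higher and 1 lower in each. Squamous epithelium genes rose, 4 of the 4 tested of 7 in each strain, with a summed level of at most 3.27 CPM in non-tumor tissues and between 30.0 and 146 CPM in tumors. Of 6 endothelial genes 3 rose in each strain and 1 fell in BF BSHhigh, with summed levels between 71.9 and 134 CPM in non-tumor tissues and between 191 and 219 CPM in tumors. No marker of the colonocyte, goblet, fibroblast or endothelial lists was at 0 in all libraries of a group, while 2 squamous markers were in each non-tumor group and 1 in each tumor group. Their part in the levels of *Il7*, *Il15*, *Il15ra*, *Il18*, *Il33* and *Il1rl1* was not tested.

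The comparison of BF BSHhigh with BF BSHlow tumors asks whether bile salt hydrolase changes these genes where tumors grow. No member was called: 0 of the 9 genes tested, where 0.509% of 15325 genes were (0.47% higher and 0.0392% lower), and *Tslp* was too low to be tested. Even so, *Il7*, *Il15ra*, *Il18* and *Il18r1* were higher in each BF BSHhigh tumor than in each BF BSHlow tumor, by the values given above. Of all genes tested, 11.8% did not overlap between these groups, 7.93% higher and 3.89% lower in BF BSHhigh tumors. DESeq2 called these 4 members among 741 genes in all, where edgeR called 78. The median log2 fold change of the 9 genes was 0.70, that of all genes was -0.03, and 1946 genes had an unadjusted p-value under 0.05.

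*Il18r1* had the largest difference, with means of 1.07 ± 0.69 CPM in BF BSHlow (SD, n = 4) and 4.33 ± 0.61 CPM in BF BSHhigh tumors (SD, n = 3). Its log2 fold change was 1.98 with a standard error of 0.49 (adjusted p = 0.119 from edgeR and 0.00552 from DESeq2). *Il7* had a value of 1.5 with a standard error of 0.40 (adjusted p = 0.147 and 0.0205), *Il15ra* 1.27 with a standard error of 0.30 (0.106 and 0.0129), and *Il18* 0.70 with a standard error of 0.20 (0.174 and 0.0418). *Il7*, *Il18r1* and the partner chain *Il2rb* are in a set of immune genes that the study chose on these libraries. Their direction is thus not independent evidence. *Il2rb*, the signalling chain for IL-15, had the largest value of the partner chains, 2.13 (adjusted p = 0.0585 from edgeR), with 4.37, 1.39, 2.86 and 1.91 CPM against 11.4, 15.1 and 8.73 CPM.

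The values of the IL-33 pair lay elsewhere. *Il33* had a log2 fold change of 0.08 with a 95% interval from -0.45 to 0.61, and its levels overlapped. *Il1rl1* had a value of -0.72 (95% interval from -1.32 to -0.12, adjusted p = 0.288 from edgeR) and overlapping levels, with 253, 140 and 245 CPM against 248, 443, 403 and 305 CPM. *Il15*, *Il7r* and *Il18bp* had values of -0.31, 0.43 and 0.87, with intervals that include 0. Without tumor replicate 2 of BF BSHlow, whose *Il7r* count is in doubt, the *Il7r* value was 0.58.

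**Figure D4:**
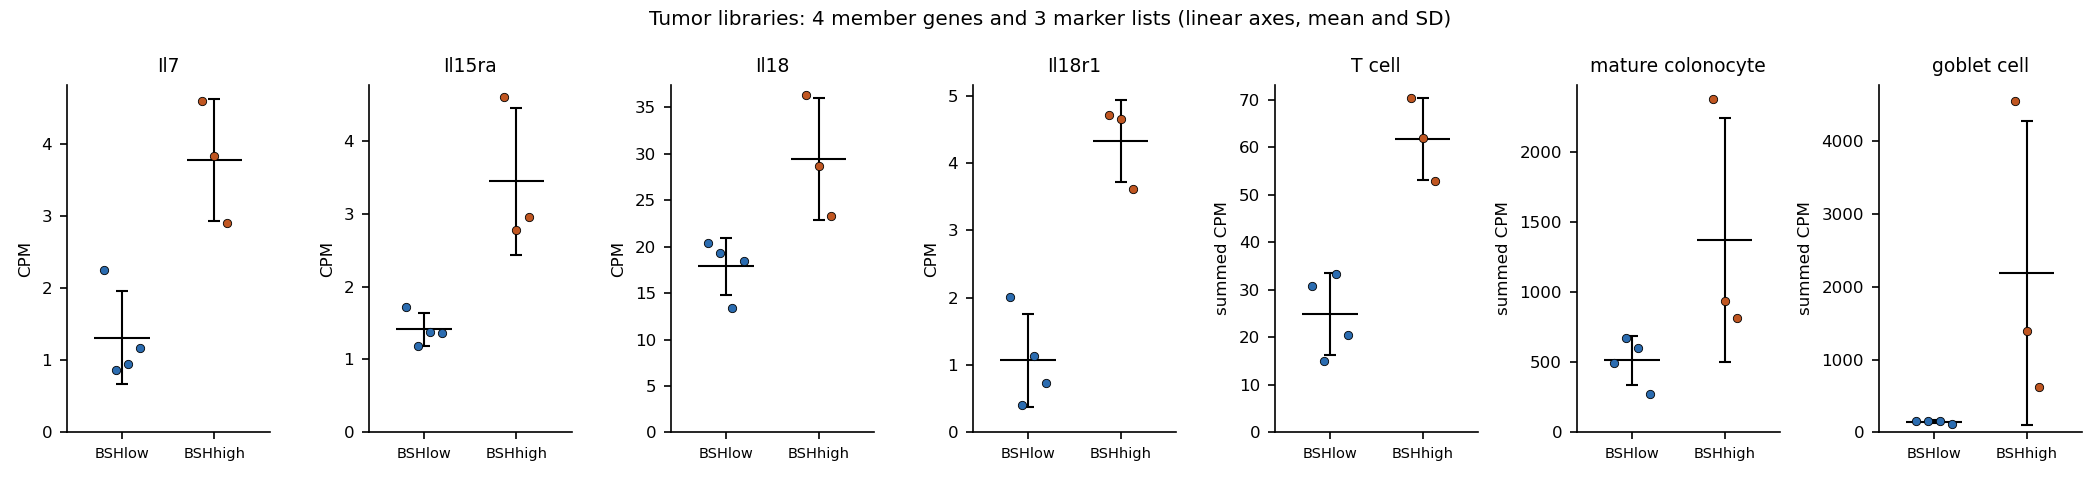
Levels in the 4 BF BSHlow and 3 BF BSHhigh tumor libraries (linear axes from 0, mean and SD) of *Il7*, *Il15ra*, *Il18* and *Il18r1* in CPM and of the T cell, mature colonocyte and goblet cell lists in summed CPM. In each of the 7 panels the BF BSHhigh tumors lie above the BF BSHlow tumors.

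Summed levels of 4 marker lists were also higher in every BF BSHhigh tumor than in every BF BSHlow tumor. The summed level of 9 mature colonocyte genes was between 277 and 677 CPM in BF BSHlow and between 815 and 2380 CPM in BF BSHhigh tumors, with 3 of 9 called. That of 7 goblet cell genes was between 113 and 163 and between 619 and 4550 CPM, with 2 of 7 called. That of 12 T cell genes was between 15.1 and 33.4 and between 53.0 and 70.4 CPM, with 0 of 11 tested called, and that of 7 B and plasma cell genes between 0.782 and 8.06 and between 91.8 and 123 CPM, with 1 of 5 tested called. No marker of these lists was at 0 in all libraries of a tumor group. Their part in the higher *Il7*, *Il15ra*, *Il18* and *Il18r1* levels was not tested. The list of 7 squamous epithelium genes lay the other way, between 55.5 and 146 CPM in BF BSHlow and between 30.0 and 39.1 CPM in BF BSHhigh tumors, with 1 of 4 tested called lower. BF BSHhigh tumor a, which was the highest for *Il7*, *Il15ra*, *Il18* and *Il18r1*, was also the highest for the colonocyte, goblet and T cell lists.

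Of the other lists, the 14 genes of inflammasomes and IL-18 processing had a median log2 fold change of 0.93, positive in 13, with 0 called. *Pycard* and *Casp1* had values of 1.60 and 1.41 (adjusted p = 0.0645 and 0.0934 from edgeR). The 5 tested cytotoxic genes had a median of 1.60 and the 10 STAT5 target genes one of -0.01, each with 0 called.

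Away from tumors no member was called between the strains. In non-tumor tissues 0 of 9 genes were called by edgeR, where 0% of 14933 genes were, with 1377 genes at an unadjusted p-value under 0.05 and 169 called by DESeq2, none of them a member. The log2 fold changes were between -0.67 (*Il15*) and 0.76 (*Il18bp*). For *Il7*, whose spread was smallest, the 95% interval was from -0.20 to 0.50, and for *Il1rl1*, with 24 CPM in 1 library, from -2.33 to 1.60. Without that library, BF BSHlow non-tumor replicate 4, the *Il1rl1* value turned from -0.36 to 1.38 (adjusted p = 0.397).

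At 2 weeks 0 of 9 genes were called, where 0.00727% of 13752 genes were. *Il18bp* stood out by its size: it was at 12.0, 5.42, 4.08 and 12.8 CPM in BF BSHlow and at 16.4, 41.0, 10.5 and 22.3 CPM in BF BSHhigh colon. Replicate 2 of BF BSHhigh was the highest, and the groups overlapped. The log2 fold change was 1.38 (95% interval from 0.37 to 2.39, adjusted p = 0.660 from edgeR), and 0.92 without that library. *Il18* was at 33.6 CPM in BF BSHhigh replicate 3 and between 9.18 and 15.1 CPM in the 7 other libraries of 2 weeks.

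**Figure D5:**
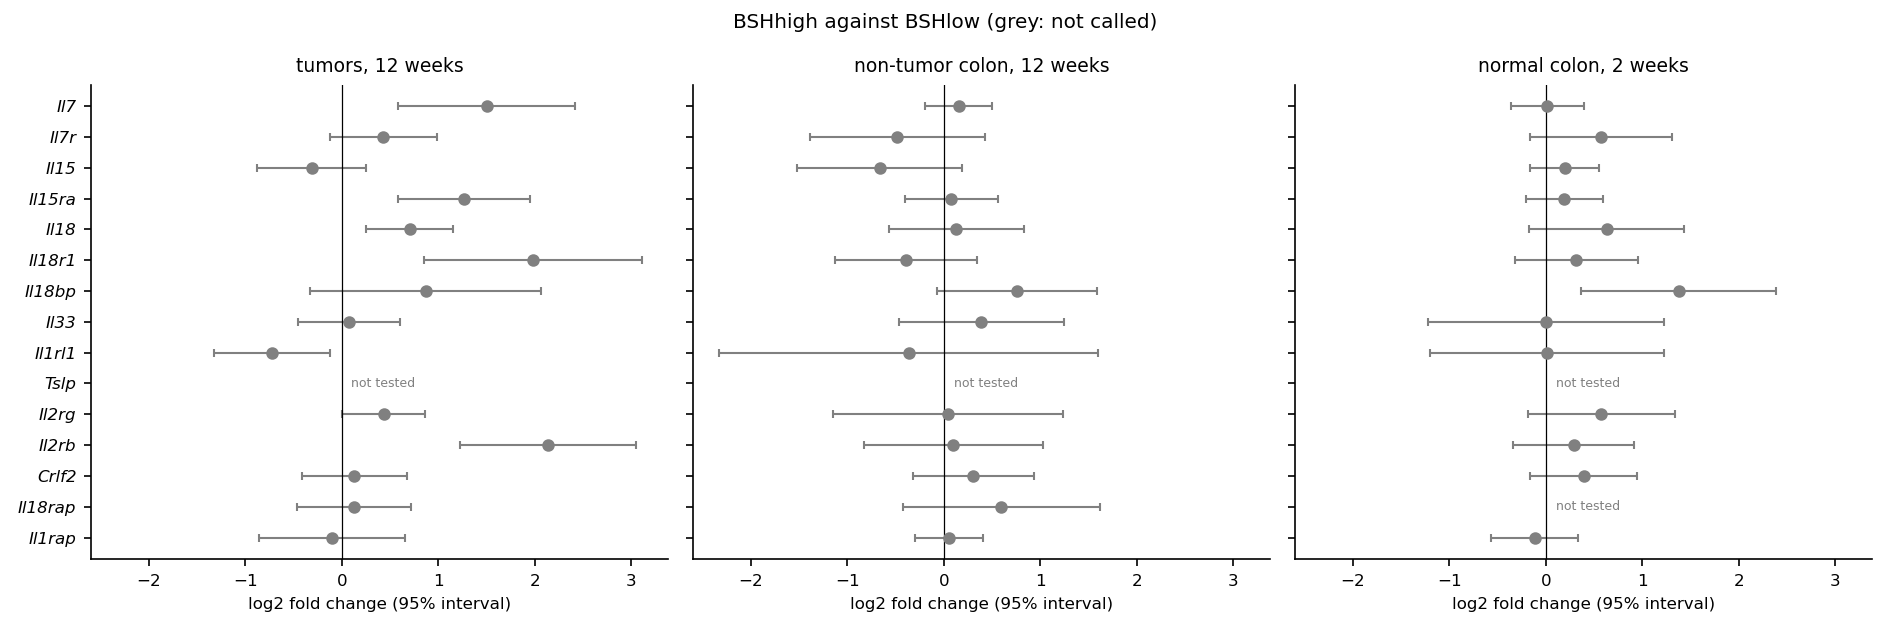
Log2 fold change of BF BSHhigh against BF BSHlow with its 95% interval for the 10 genes and 5 partner chains in tumors, non-tumor tissues and colon of 2 weeks, on 1 common axis. No gene was called, and the intervals of *Il7*, *Il15ra*, *Il18*, *Il18r1*, *Il2rb* and *Il2rg* lie above 0 in tumors.

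Non-tumor tissues of 12 weeks were also set beside normal colon of 2 weeks. *Il18* and *Il33* rose in both strains, and *Il15ra* fell in both. In BF BSHlow mice 7 of 9 tested genes were called, 6 higher and 1 lower, where 49.1% of 15532 genes were (25.6% higher and 23.5% lower). With BF BSHhigh 6 of 9 were called, 3 higher and 3 lower, beside 49.8% (27% higher and 22.7% lower). Time, age of the mice and the experiment cannot be told apart.

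*Il33* was between 0.363 and 1.55 CPM in the 8 libraries of 2 weeks and between 2.97 and 12.6 CPM in the 8 non-tumor libraries, without overlap. It rose by 2.60 in BF BSHlow and 3.0 in BF BSHhigh on the log2 scale (adjusted p = 0.000347 and 0.000108 from edgeR). *Il18* rose by 2.64 and 2.15 (adjusted p = 6.06e-05 and 0.000260), and its levels did not overlap in either strain. These calls held with each library left out.

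*Il7r* rose by 1.63 in BF BSHlow (adjusted p = 0.00283 from edgeR) and had a value of 0.59 in BF BSHhigh (adjusted p = 0.207). *Il15* fell by 1.59 in BF BSHhigh (adjusted p = 0.000599) and had a value of -0.74 in BF BSHlow (adjusted p = 0.0503). *Il15ra* fell by 0.60 and by 0.70 (adjusted p = 0.0218 and 0.00863). *Il18bp* fell by 1.43 in BF BSHhigh (adjusted p = 0.0151), a call that was lost without replicate 2 of 2 weeks (-0.97, adjusted p = 0.0792).

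*Il7* rose by 0.41 in BF BSHlow and 0.56 in BF BSHhigh (adjusted p = 0.0452 and 0.00880 from edgeR). In BF BSHlow, the calls of *Il7*, *Il18r1* (0.80, adjusted p = 0.0365), *Il1rl1* (2.23, adjusted p = 0.0342) and *Il15ra* were each lost on leaving out between 3 and 6 of the 8 libraries in turn. *Il1rl1* fell to 0.48 without non-tumor replicate 4 (adjusted p = 0.523). Among partner chains, *Il2rg* rose by 1.75 and 1.24 (adjusted p = 0.00844 and 0.0423), and *Il18rap* rose by 1.64 and 1.90 (adjusted p = 0.0143 and 0.00434).

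Tissue makeup differed between these sets of libraries. The summed level of 6 smooth muscle genes was between 45.3 and 174 CPM at 2 weeks and between 1510 and 8470 CPM at 12 weeks in BF BSHlow mice, and between 7.09 and 206 and between 3290 and 4340 CPM in BF BSHhigh mice, with 6 of 6 called higher. All 6 fibroblast genes were higher in each strain, and 7 and 8 of 8 macrophage genes. *Hoxb13*, a gene of the posterior body axis, was at most 60.5 CPM at 2 weeks and at least 376 CPM in non-tumor tissues of 12 weeks, and *Cyp2c55*, a cytochrome of the colon, was at least 555 CPM and at most 30.3 CPM (both chosen after their values were seen). *Cdx2* itself was between 307 and 418 CPM at 2 weeks and between 6.34 and 60.5 CPM in non-tumor tissues. Their part in the rise of *Il33* and *Il18* was not tested.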

How the data were processed

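RNA-seq of 23 mouse colon libraries was used. The authors deposited raw expected counts, 1 column per library. The submitters' processing notes name cutadapt, STAR, Picard, RSEM and mm10. Whether RSEM used strand is not given in the sources used here. Groups followed the sample labels. The columns of the 3 BF BSHhigh tumors repeat names of BF BSHlow tumors and were assigned as a group through the supplementary expression table of the study. They are called a, b and c here and have no replicate number. Whether a library held RNA of 1 mouse or several is not clear, so p-values measure the spread between these libraries.

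Expected counts were rounded to whole numbers (4.24% of the deposited values were not whole, none of them of a member) and tested in R 4.3.3 with edgeR 4.0.16 (TMM, filterByExpr, glmQLFit and glmQLFTest, Benjamini-Hochberg adjustment over all genes tested). BF BSHhigh and BF BSHlow were compared in fits of the 2 groups alone. Tumor and non-tumor tissues and the interaction were fitted over the 15 libraries of 12 weeks, and 12 against 2 weeks over 16 libraries. CPM per library are on the TMM scale of all 23 libraries. Gene positions and exon lengths are from GENCODE M21 (GRCm38), and promoters are from RefSeq (GRCm38.p6). All 55449 gene identifiers matched. Python 3.11.15 (pandas 2.3.3, numpy 2.4.6) served to read the table. Left out were 1 row that names no gene and 1 row with a value that could not be read as a number. The tests were also run on counts simulated with the trended spread that edgeR fitted. These counts lack a separate spread for each gene, so that run does not measure how the tests do on these libraries.

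The members, the other gene lists and the tests were chosen with earlier results of these data known. All 10 members and their 5 partner chains are named, and of the other lists up to 4 called genes per comparison with the smallest adjusted p-value, with *Casp1*, *Mcpt1*, *Hdc*, *Il13*, *Il5*, *Notum*, *Hoxb13*, *Cyp2c55* and *Cdx2* added after their values were seen. Alternatives were RLE size factors, no filter on low counts, DESeq2 1.42.0, 1 fit of all 23 libraries, the replicate number as a block, and each library left out in turn. Columns of the study's own tests were not used.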

Additional observations from a re-analysis of the deposited data

Results flagged for a closer look

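In groups of 4 libraries, levels were taken as log2 CPM with a prior count of 2. A library was set apart where its gap to the nearest other took a larger share of the group's range than Dixon's 95% limit allows. Of 50 such tests 3 were past this limit, and chance gives about 1 in 20. *Il7r* was at 2.9 CPM and *Il18r1* at 1.55 CPM in BF BSHlow non-tumor replicate 4, below the 3 other libraries of that group. The same library had the highest *Il1rl1* level of all non-tumor tissues. *Il15* was at 19.2 CPM in BF BSHhigh replicate 3 of 2 weeks, below the 3 others.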

How the results depend on the processing

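Of 354 log2 fold changes of single members under the other settings, 323 kept their direction and their side of the threshold. The number of members called higher in BF BSHhigh than in BF BSHlow tumors was 0 with edgeR and 3 with all 23 libraries in 1 fit (*Il7*, *Il15ra* and *Il18r1*), and 4 with DESeq2. For the interaction it was 0, and 2 under each of these settings (*Il7* and *Il18r1*). All genes called in tumors numbered 78 with edgeR, 344 without the filter, 806 with all libraries and 741 with DESeq2. For the interaction they numbered 163, and 273 and 420 with all libraries and DESeq2. Between the strains in non-tumor tissues they numbered 0 with edgeR and 169 with DESeq2, and at 2 weeks 1, 53 with DESeq2 and 6 without the filter. The cause of these differences was not tested.

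With 1 library left out, the members called were between 0 and 2 for the interaction (2 without BF BSHlow tumor replicate 1), between 4 and 6 for 12 against 2 weeks in BF BSHlow, and 0 in each fit of BF BSHhigh against BF BSHlow. Values near 0 changed sign. They were between -0.13 and 0.27 for *Il33* in tumors. In non-tumor tissues they were between -0.03 and 0.23 for *Il15ra*, -0.11 and 0.35 for *Il18*, -0.003 and 0.56 for *Il33*, and -0.71 and 1.38 for *Il1rl1*. At 2 weeks they were between -0.092 and 0.12 for *Il7*, -0.40 and 0.24 for *Il33*, and -0.77 and 0.33 for *Il1rl1*. For the interaction they were between -0.36 and 0.53 for *Il18bp*, -0.49 and 0.09 for *Il33*, -2.10 and 0.026 for *Il1rl1*, and -1.18 and 0.96 for *Tslp*. For tumor against non-tumor tissues in BF BSHhigh they were between -0.67 and 0.14 for *Il18bp*, and for 12 against 2 weeks in BF BSHhigh between -0.062 and 0.31 for *Il18r1*. With all libraries in 1 fit, *Il33* at 2 weeks was 0.025 in place of -0.002.

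Deviations of same-numbered libraries correlated between -0.17 and 0.26. BF BSHhigh tumor and non-tumor tissues could hold the same mice, but these tumors have no numbers to match. Of the groups matched by number, only BF BSHlow tumor and non-tumor tissues could hold the same mice. Their correlations were 0.158, -0.084, 0.018 and 0.106 for replicates 1 to 4, and replicates 1 and 4 matched their own number best. Such values cannot decide whether same-numbered libraries came from the same mouse. With the replicate number as a block, *Il1rl1* turned to 0.31 in non-tumor tissues and -0.25 at 2 weeks, and 0 members were called in each. Between strains and between times, same-numbered libraries are of different mice, so the block pairs no mice there. In fits of 1 strain with the block, 7 members were called in BF BSHlow tumors against non-tumor tissues, and 5 in each strain for 12 against 2 weeks. In the latter the block lost the calls of *Il7* (0.42, adjusted p = 0.0842 from edgeR), *Il18r1* and *Il1rl1* in BF BSHlow and of *Il7* (0.56, adjusted p = 0.057) and *Il18bp* in BF BSHhigh, and gained *Il15* in BF BSHlow and *Il1rl1* in BF BSHhigh. BF BSHhigh tumors have no numbers, so no block could be fitted for them. *Tslp*, with at most 16 counts, is limited by depth.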
